A study of Mus musculus with 4 samples.

Results

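The Musashi genes Msi1 and Msi2, the LIN28 genes Lin28a and Lin28b, the IGF2BP genes Igf2bp1, Igf2bp2 and Igf2bp3 and the HMGA genes Hmga1 and Hmga2 encode RNA-binding and chromatin proteins that are made in embryonic tissue and stem cells and return in many tumours. Every probe set whose gene symbol in the platform annotation is one of these 9 names was taken, which gave 28 of the 45037 probe sets on the array. Of these, 8 name Msi2, 6 Igf2bp3, 4 Igf2bp1, 4 Hmga2, 3 Msi1, 2 Lin28a and 1 Lin28b. Igf2bp2 and Hmga1 had 0 probe sets naming them here, so 7 of the 9 genes could be read.

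The arrays set MN1 leukemic bone marrow against Gr1/Mac1 cells, mature myeloid bone marrow cells of healthy mice that were positive for Gr1 and CD11b. For the leukemia, C57BL/6J marrow was taken 4 days after fluorouracil at 150 mg/kg and stimulated for 48 hours with interleukin-6, interleukin-3 and stem cell factor. MN1, a gene whose high level drives aggressive myeloid leukemia in mice, was then brought in by virus from GP+ E86 producer cells, and GFP-positive cells were sorted. They were injected into syngeneic recipients irradiated with 750 cGy, together with fresh helper marrow, so that marrow of the leukemic mice can also hold helper and host cells. Both groups are C57BL/6J. The labels used here give neither age nor sex. Each group has 2 arrays from separate biological replicates. Since immature cells without MN1 were not profiled on these 4 arrays, an effect of MN1 and a difference in maturity cannot be told apart.

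MSI1 and MSI2 bind short motifs in messenger RNA and repress or stabilise their targets. MSI2 is the form known from blood stem cells and from myeloid leukemia with poor outcome. LIN28A and LIN28B bind the precursors of the let-7 microRNAs and keep them from maturing, and let-7 in turn represses Hmga2, the Igf2bp genes and Lin28 itself. In mouse fetal liver LIN28B, IGF2BP3 and HMGA2 belong to a program that sets fetal apart from adult blood formation. The IGF2BP proteins bind and stabilise messenger RNA, and HMGA proteins bend DNA at AT-rich sites through their AT hooks.

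The let-7 sequences are shown because they are the link between LIN28 and the HMGA and IGF2BP genes. The microRNAs themselves were not measured on these arrays. RefSeq, with build GRCm38.p6, lists 9 mature names of the Mirlet7 and Mir98 genes that share a seed, bases 2 to 8, in capitals here. Of 1679 mature mouse microRNA names 11 carry it, the other two, let-7k among them, being of other genes and not shown.
let-7a-5p: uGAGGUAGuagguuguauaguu
let-7b-5p: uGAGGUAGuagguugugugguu
let-7c-5p: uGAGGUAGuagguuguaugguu
let-7d-5p: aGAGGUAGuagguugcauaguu
let-7e-5p: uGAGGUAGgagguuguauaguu
let-7f-5p: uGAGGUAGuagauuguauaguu
let-7g-5p: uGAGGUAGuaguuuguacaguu
let-7i-5p: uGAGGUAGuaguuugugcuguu
miR-98-5p: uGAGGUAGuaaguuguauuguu
LIN28 is known to hold let-7 precursors at a GGAG stretch in the loop. These letters stand in 9 of the 12 hairpins of the Mirlet7 and Mir98 genes in RefSeq, and in 44.5% of all 1005 mouse hairpins, so the letters alone are not particular to let-7. In the let-7g hairpin, 88 bases at chr9:106178840-106178927 on the plus strand, they are in capitals.
let-7g hairpin: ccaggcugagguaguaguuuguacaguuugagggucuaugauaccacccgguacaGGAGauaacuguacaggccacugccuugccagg

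The promoters of the 4 genes that changed are shown next, since the study is about a complex of MEIS1 and HOX proteins and the MYC genes below also changed. Each window runs from 250 bases before to 50 after the RefSeq start (GRCm38.p6) and reads 5′ to 3′ on the strand of the gene. Capitals mark matches, on either strand, to TGACAG (a MEIS motif), TGATNNAT (HOX with PBX), CACGTG (the E-box that MYC proteins bind), CCAAT and TATAAA. Msi2 has 3 listed starts and is shown at the first.
Msi2 promoter, chr11:88718228-88718527, minus strand: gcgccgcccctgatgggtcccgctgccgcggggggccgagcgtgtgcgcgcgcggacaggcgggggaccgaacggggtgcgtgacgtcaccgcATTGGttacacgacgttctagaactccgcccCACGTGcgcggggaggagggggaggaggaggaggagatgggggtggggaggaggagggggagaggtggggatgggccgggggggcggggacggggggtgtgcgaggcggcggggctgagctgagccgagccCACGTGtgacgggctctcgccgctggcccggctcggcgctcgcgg
Igf2bp3 promoter, chr6:49214905-49215204, minus strand: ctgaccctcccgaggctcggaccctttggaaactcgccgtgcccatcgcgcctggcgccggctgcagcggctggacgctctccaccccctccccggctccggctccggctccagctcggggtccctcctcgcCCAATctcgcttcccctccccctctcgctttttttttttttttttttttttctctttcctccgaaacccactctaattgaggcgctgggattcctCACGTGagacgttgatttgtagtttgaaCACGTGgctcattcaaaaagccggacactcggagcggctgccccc
Hmga2 promoter, chr10:120476420-120476719, minus strand: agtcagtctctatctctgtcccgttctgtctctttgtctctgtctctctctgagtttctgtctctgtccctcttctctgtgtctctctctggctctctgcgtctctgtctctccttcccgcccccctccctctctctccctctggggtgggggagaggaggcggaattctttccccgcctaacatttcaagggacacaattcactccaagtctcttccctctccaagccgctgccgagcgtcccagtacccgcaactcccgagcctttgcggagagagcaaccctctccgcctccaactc
Lin28a promoter, chr4:134018767-134019066, minus strand: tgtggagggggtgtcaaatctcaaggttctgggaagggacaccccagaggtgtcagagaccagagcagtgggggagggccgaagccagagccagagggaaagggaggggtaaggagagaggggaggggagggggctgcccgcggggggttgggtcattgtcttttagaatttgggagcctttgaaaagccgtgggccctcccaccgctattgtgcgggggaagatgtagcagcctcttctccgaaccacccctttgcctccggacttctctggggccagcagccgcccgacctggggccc
The Msi2 and Igf2bp3 windows each hold 2 copies of CACGTG and 1 CCAAT. Of 32851 promoter windows of the same length, 7.15% hold at least 1 CACGTG and 0.594% hold at least 2, while 37.4% hold CCAAT. The Hmga2 and Lin28a windows hold none of the 5 motifs, and TGACAG, which 19.2% of all windows hold, TGATNNAT (8.85%) and TATAAA (13.6%) are in none of the 4. GC content was 76.3% for Msi2, 60.3% for Igf2bp3, 57.7% for Hmga2 and 63.3% for Lin28a, with a median of 52.7% over all windows. The letters CG, which CACGTG contains, stand 39 times in the Msi2 and 25 times in the Igf2bp3 window. Their median over all windows was 7, so the shares of CACGTG above are not those of windows as rich in CG. A match is a description of letters, not a site.

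Levels are MAS5 signals, on a linear intensity scale. They were compared as log2(signal + 16), MN1 leukemic minus Gr1/Mac1, which understates the change of dim probe sets. The fit ran over the 27022 probe sets above the filter on dim signals (lowest mean signal tested 47.6). Changed means a Benjamini-Hochberg adjusted p under 0.05 in limma, and ± is the SD (n = 2). Over all of them, 34.9% changed, 21.2% being higher and 13.6% lower in leukemic marrow. The gate antigen gene Itgam (CD11b) read 584 and 306 in leukemic and 4288 and 4407 in Gr1/Mac1 arrays, and no probe set names Ly6g here. Mn1 read 17.7 and 92.6 in leukemic and 3.92 and 12.1 in Gr1/Mac1 arrays, too dim to be tested. Whether this signal includes the MN1 brought in by virus was not tested, so it gives no level for that MN1. The 3′ to 5′ ratio of beta-actin, a measure of RNA integrity, was 3.28 and 3.09 in leukemic and 1.32 and 1.39 in Gr1/Mac1 arrays, so RNA quality and group cannot be told apart. The hybridization controls were also brighter in leukemic arrays (11918 and 8949.8 in leukemic, against 4044 and 4168 in Gr1/Mac1 arrays). Scaling to them moves the median log2 fold change of all genes to -0.95, against 0.28 as deposited. In bulk RNA, fewer cells of a type and less RNA per cell cannot be told apart.

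Of the 28 probe sets, 20 were bright enough to be tested and 17 of these changed, 15 higher and 2 lower. A probe set could enter the test through the group where it is bright, and probe sets of 1 gene share their transcript, so these are not 17 separate findings. They belong to 4 genes. Msi2, Igf2bp3 and Hmga2 were higher in leukemic marrow, and Lin28a was lower. Over all 28, both leukemic arrays lay above both Gr1/Mac1 arrays in 20 and below them in 4, and the groups overlapped in 4. Across all 45037 probe sets, 32.6% lay above and 24.4% below in this way. Of the 20 tested, 17 lay above and 2 below, where 41.4% and 28.6% of all tested probe sets did. The median log2 fold change was 2.76 over the 20 tested probe sets and 0.19 over all those tested.

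**Figure D1:**
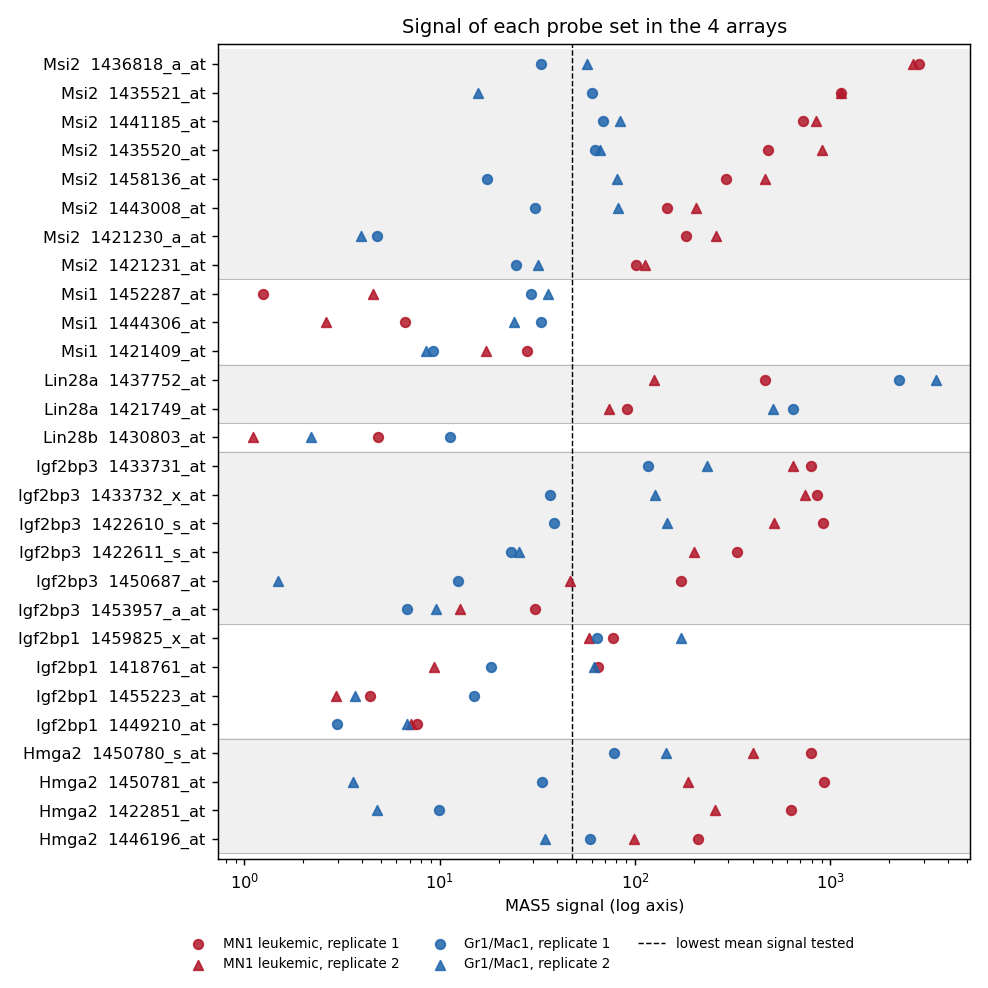
MAS5 signal (log axis) of each of the 28 probe sets, 1 row each, in the 2 MN1 leukemic arrays (red) and the 2 Gr1/Mac1 arrays (blue); circles are replicate 1, triangles replicate 2, and the dashed line is the lowest mean signal tested, 47.6. The red points lie to the right of the blue in all rows of Msi2, Igf2bp3 and Hmga2 and to the left in both rows of Lin28a, while Lin28b and most rows of Igf2bp1 overlap.

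Msi2 rose in leukemic marrow. The probe set with the largest mean (1436818_a_at) read 2824 and 2658 in leukemic arrays, against 33.1 and 56.6 in Gr1/Mac1 arrays. It averaged 2741 ± 118 in leukemic and 44.9 ± 16.6 in Gr1/Mac1 arrays. The leukemic arrays are far above and close to each other, and the log2 fold change was 5.53 (SE 0.31, limma adjusted p = 2.2e-04). Read from this probe set, Msi2 ranks as number 62 of 12378 genes by log2 fold change. A second probe set, 1435521_at, read 1130 and 1127 in leukemic, against 59.99 and 15.8 in Gr1/Mac1 arrays (4.54, SE 0.46, adjusted p = 9.9e-04). Here the leukemic arrays are nearly equal, and the spread lies in the dim Gr1/Mac1 arrays.

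In all 8 Msi2 probe sets both leukemic arrays lay above both Gr1/Mac1 arrays, and 7 passed the test. The size of the difference varied from 1.47 to 5.53 between them, with a median of 3.09. The probe set 1421230_a_at read 183 and 260 in leukemic, against 4.76 and 3.95 in Gr1/Mac1 arrays (3.53, SE 0.49). Probe sets 1441185_at (3.11, SE 0.31) and 1435520_at (3.07, SE 0.40) lay near the median, as did 1458136_at (2.75, SE 0.57). The call of 1458136_at was lost with scaling to the hybridization controls (adjusted p = 0.061) and without MN1 leukemic replicate 2 (0.087), the adjusted p spanning 5.5e-04 to 0.087 over 14 alternatives. The smallest differences were those of 1421231_at (1.47, adjusted p = 0.048), which kept its call in 4 of 13 alternatives, and 1443008_at (1.48, adjusted p = 0.058), which did not pass. The sources used here do not say where on the transcript each probe set lies. The platform annotation gives 1435521_at and 1435520_at the same source sequence, and 1421230_a_at and 1421231_at another, so these are not independent. With the mean of its probe sets in place of 1, Msi2 was higher by 3.19 (adjusted p = 6.1e-04).

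Msi1, the Musashi gene of neural and gut stem cells, was dim in all arrays. None of its 3 probe sets reached the filter, so it was not tested, and they disagree in direction. The probe set 1421409_at read 27.99 and 17.3 in leukemic, against 9.25 and 8.54 in Gr1/Mac1 arrays. The other two point the other way, with 1.24 and 4.54 in leukemic, against 29.4 and 35.7 in Gr1/Mac1 arrays for 1452287_at, and 6.61 and 2.61 in leukemic, against 32.8 and 24.05 in Gr1/Mac1 arrays for 1444306_at. No direction is given for Msi1. Whether the change of Msi2 differs from that of Msi1 was not tested.

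Lin28a fell in leukemic marrow, in both of its probe sets. The brighter, 1437752_at, read 460 and 125 in leukemic arrays, against 2238 and 3481 in Gr1/Mac1 arrays. It averaged 292 ± 236 in leukemic and 2859.5 ± 879 in Gr1/Mac1 arrays. The groups do not overlap, although the leukemic arrays differ several-fold from each other, and the log2 fold change was -3.44 (SE 0.55, adjusted p = 0.0041). The other, 1421749_at, read 90.8 and 73.9 in leukemic, against 643 and 508 in Gr1/Mac1 arrays (-2.58, SE 0.33, adjusted p = 0.0020). Both passed in all 14 alternatives, with log2 fold changes of -4.70 to -2.56 and of -3.77 to -2.12. By log2 fold change Lin28a ranks as number 111 of 12378 genes from the lowest.

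Lin28b, the paralogue of fetal liver, had a single probe set (1430803_at). It read 4.84 and 1.10 in leukemic, against 11.3 and 2.18 in Gr1/Mac1 arrays, at the bottom of the scale and with overlapping groups. It was under the filter and not tested, and 1 dim probe set gives no level for the gene.

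As deposited, most monocyte markers and a part of the neutrophil markers were lower in leukemic marrow, as Lin28a was. The median log2 fold change was -2.31 over the monocyte and -0.34 over the neutrophil markers. Among all 12378 genes 15.9% were lower and 27.5% higher. Of the monocyte markers 5 of 6 tested were lower and 0 higher, and their summed signal was 37373 to 60598 in leukemic and 65010 to 98463 in Gr1/Mac1 arrays. Of the neutrophil markers 4 of 10 tested were lower and 0 higher, and their summed signal, 262191 to 456106 in leukemic and 359437 to 458267 in Gr1/Mac1 arrays, overlapped. Under scaling to the hybridization controls, 6 of 6 monocyte and 9 of 10 neutrophil markers were lower, with medians of -3.62 and -1.67. Among all 12378 genes 5944 were then lower. All of these markers with a probe set stood above the filter. Their part in the difference of Lin28a was not tested.

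Igf2bp3 rose in leukemic marrow. The probe set with the largest mean (1433731_at) read 798 and 642 in leukemic, against 116 and 232 in Gr1/Mac1 arrays (2.02, SE 0.38, adjusted p = 0.0072). That call was lost under scaling to the hybridization controls (0.75, adjusted p = 0.14) and when MN1 leukemic replicate 1 was left out (adjusted p = 0.059), within a span of 0.0015 to 0.14 over 14 alternatives. The largest difference was that of 1433732_x_at, with 851 and 737 in leukemic, against 36.8 and 126 in Gr1/Mac1 arrays (3.22, SE 0.49, adjusted p = 0.0034), which passed in all 14 alternatives. Its _x_ suffix marks probes that can also match other transcripts. Read from 1433731_at, Igf2bp3 ranks as number 1446 of 12378 genes by log2 fold change.

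All 6 Igf2bp3 probe sets had both leukemic arrays above both Gr1/Mac1 arrays. All 5 tested ones passed, with log2 fold changes from 2.02 to 3.22. They are not independent, since the platform annotation gives 1433731_at and 1433732_x_at the same source sequence. It gives another to 1422610_s_at, 1422611_s_at and 1450687_at. The probe set 1422611_s_at read 331 and 200.4 in leukemic, against 23.1 and 25.5 in Gr1/Mac1 arrays (2.77, SE 0.45), and 1422610_s_at 919 and 514 in leukemic, against 38.6 and 146 in Gr1/Mac1 arrays (2.91, SE 0.56). For both, leaving out MN1 leukemic replicate 1 ended the call, with an adjusted p of 0.050 for 1422611_s_at (0.0012 to 0.050 over 13 alternatives) and 0.053 for 1422610_s_at (6.3e-04 to 0.053 over 14). The dimmest tested one, 1450687_at, read 172 and 46.4 in leukemic, against 12.3 and 1.48 in Gr1/Mac1 arrays (2.28, adjusted p = 0.045), and kept its call in 3 of 13 alternatives. The untested 1453957_a_at read 30.8 and 12.7 in leukemic, against 6.77 and 9.55 in Gr1/Mac1 arrays.

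Igf2bp1, which is known for binding the mRNAs of Myc and Actb, gave no call. Of its 4 probe sets only 1459825_x_at was bright enough, with 76.9 and 58.2 in leukemic, against 64.2 and 172 in Gr1/Mac1 arrays (-0.56, SE 0.53, adjusted p = 0.45). The groups overlap. Under scaling to the hybridization controls it passed as lower (-1.66, adjusted p = 0.039), while the adjusted p reached 0.95 in another alternative. The other 3 probe sets read between 2.93 and 64.2 in leukemic and between 2.96 and 61.5 in Gr1/Mac1 arrays. Whether Igf2bp3 and Igf2bp1 differ in their response was not tested.

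Hmga2 rose in leukemic marrow. The probe set 1422851_at read 628 and 255 in leukemic arrays, against 9.93 and 4.78 in Gr1/Mac1 arrays. It averaged 441 ± 263 in leukemic and 7.35 ± 3.65 in Gr1/Mac1 arrays. Both leukemic arrays are far above, and the log2 fold change of 4.17 (SE 0.54, adjusted p = 0.0020) passed in all 14 alternatives. The probe set 1450781_at read 929 and 187 in leukemic, against 33.3 and 3.59 in Gr1/Mac1 arrays (3.82, SE 0.79, adjusted p = 0.010). Its groups do not overlap, but the leukemic arrays lie far apart, and the call was lost without MN1 leukemic replicate 1 (adjusted p = 0.063; 8.7e-05 to 0.063 over 14 alternatives). The one with the largest mean, 1450780_s_at, read 798 and 403 in leukemic, against 78.0 and 144 in Gr1/Mac1 arrays (2.25, SE 0.45, adjusted p = 0.0086). This call too was lost without MN1 leukemic replicate 1 (adjusted p = 0.079) and under scaling to the hybridization controls (0.097, with 0.0017 the lowest over 14 alternatives). The platform annotation gives these 3 probe sets the same source sequence, so they are not independent. The fourth, 1446196_at, read 209.8 and 99.1 in leukemic, against 59.0 and 34.5 in Gr1/Mac1 arrays, and did not pass (1.39, adjusted p = 0.075). With the mean of its probe sets Hmga2 was higher by 2.91 (adjusted p = 0.0036). Read from 1450780_s_at, Hmga2 ranks as number 1169 of 12378 genes by log2 fold change.

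**Figure D2:**
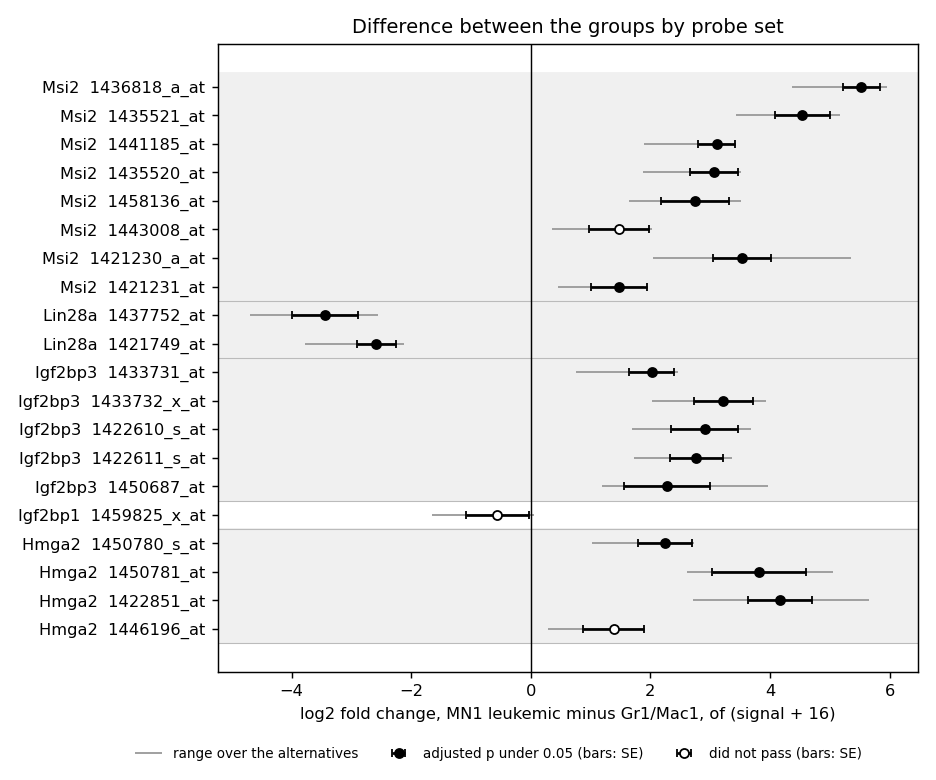
Log2 fold change, MN1 leukemic minus Gr1/Mac1 (x axis), of the 20 tested probe sets, 1 row each; filled points passed at an adjusted p under 0.05, open points did not, black bars are the SE, and grey lines span the alternatives. All points of Msi2, Igf2bp3 and Hmga2 lie right of 0 under each alternative, both of Lin28a lie left of 0 under each, and the line of Igf2bp1 crosses 0.

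The 2 leukemic arrays did not have the same levels of the genes that rose. Hmga2 read higher in leukemic replicate 1 in 4 of 4 probe sets and Igf2bp3 in 6 of 6, with median log2 differences between the arrays of 1.11 and 0.69. Msi2 read higher in replicate 1 in 2 of 8, with a median of -0.34. The median over all tested probe sets was -0.01, with an SD of 0.58. Without leukemic replicate 1 the log2 fold changes ran from 1.54 to 5.48 for Msi2, 1.49 to 3.12 for Igf2bp3 and 0.9 to 3.55 for Hmga2. Without leukemic replicate 2 they ran from 1.25 to 5.57, 2.17 to 3.33 and 1.88 to 4.93 in the same order. With 2 arrays the difference between replicates has no test of its own.

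**Figure D3:**
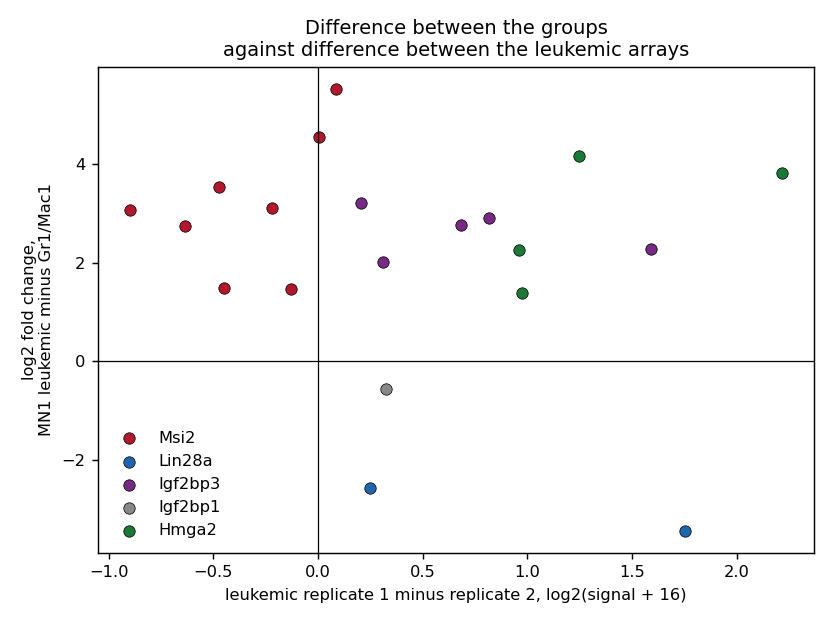
Log2 fold change between the groups (y axis) against the log2 difference between leukemic replicate 1 and replicate 2 (x axis) for the 20 tested probe sets, coloured by gene. The points of Hmga2 and Igf2bp3 lie right of 0, higher in replicate 1, and 6 of the 8 points of Msi2 lie left of 0.

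Markers of immature and of other cells moved with the 3 genes that rose. All 6 stem and progenitor markers were higher, with a summed signal of 22882 to 24573 in leukemic and 993 to 1309 in Gr1/Mac1 arrays. Of the mast cell and basophil markers 5 of 6 tested were higher (summed 53294 to 67565 against 10720 to 13561), of the erythroid markers 5 of 6 (44741 to 64944 against 4303 to 8685), and of the megakaryocyte markers 3 of 6 (3748 to 3947 against 590 to 700). The part of these cells in the higher signals was not tested. As deposited, none of 5 tested B cell markers and neither of 2 tested stromal markers changed. Of the T and NK cell markers 1 of 3 tested was lower, Cd3e, Cd3g and Cd4 being under the filter level in every array. Of the plasma cell markers 3 of 5 were lower. Over all genes 27.5% were higher and 15.9% lower. Scaling to the hybridization controls kept all 6 stem and progenitor markers higher. It gave 4 higher and 1 lower for mast cells and basophils and likewise for erythroid cells, and 3 and 1 for megakaryocytes. Of the B cell and stromal markers 1 each was then lower, of the T and NK cell markers 2 and of the plasma cell markers 4. Among all 12378 genes 1083 were then higher and 5944 lower.

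The genes that act with these proteins were read from lists in the fit over 12378 genes, each gene being represented by its brightest probe set. Over all genes 43.4% changed, 27.5% being higher and 15.9% lower. Of the 132 tested genes on the 10 lists, 63 changed, 47 higher and 16 lower, with a median of 0.42 against 0.28 over all genes. Some genes stand on more than 1 list.

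Of the genes that make, load or destroy let-7, 8 of 21 tested were higher and 3 lower, with a median of 0.41. The split turned to 2 higher and 11 lower under scaling to the hybridization controls (median -0.83), and was 5 and 2 without leukemic replicate 1 and 5 and 1 without replicate 2. Drosha, the nuclease that cuts primary microRNA transcripts, read 13545 and 14036 in leukemic, against 489 and 350 in Gr1/Mac1 arrays (5.00, SE 0.25, adjusted p = 1.1e-04). Tut4, the uridylyltransferase that LIN28 recruits to let-7 precursors, was higher by 2.50 (SE 0.25, adjusted p = 7.7e-04), and all 5 of its probe sets rose. Both held in each of the 16 alternatives over genes. The Argonaute gene Ago1 (1.59, adjusted p = 0.0033) and Hnrnpa1 (1.56, adjusted p = 0.0027), whose product binds let-7 precursors, lost their calls under scaling to the hybridization controls, with an adjusted p of 0.39 for Ago1 and 0.42 for Hnrnpa1 (lowest over 16 alternatives 5.9e-04 and 3.6e-04). Ago4 was lower (-2.01, SE 0.29), as was Tnrc6b (-1.49, SE 0.31), a silencing partner of the Argonautes, whose call was lost without leukemic replicate 2 (adjusted p = 0.058) and with the mean of its probe sets (0.063; range 5.2e-04 to 0.063). Of the 3 tested probe sets of Tnrc6b, 1 passed. Dgcr8 (0.41), Tut7 (-0.50) and Dis3l2 (0.35), the nuclease that degrades uridylated let-7, did not pass.

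Genes that let-7 is known to repress moved both ways. Of 20 tested, 5 were higher and 7 lower, with a median of -0.43, and 3 were higher and 14 lower under scaling to the hybridization controls. The MYC family gene Mycn read 13960.2 and 20231 in leukemic, against 56.7 and 37.5 in Gr1/Mac1 arrays (8.07, SE 0.30), and Myc 4334 and 4014 in leukemic, against 189 and 130.3 in Gr1/Mac1 arrays (4.60, SE 0.27). One of the 3 tested probe sets of Mycn did not pass. Lower were Arid3b (-2.98, SE 0.55), the receptor gene Igf1r (-2.34, SE 0.30), the kinase gene Map4k4 (-1.92, SE 0.29) and the cell cycle factor gene E2f2 (-1.68, SE 0.34). Of the 2 tested probe sets of E2f2, 1 passed. Nras (-0.32), Ccnd1 (-0.35) and Cdc25a (-0.51) did not pass.

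Known Musashi targets and partners also moved both ways, with 6 of 14 tested higher and 4 lower. The counts were 4 higher and 6 lower under scaling to the hybridization controls, and 5 and 2 without leukemic replicate 2. Hoxa9 (7.69, SE 0.46), Myc and Ikzf2 (4.55, SE 0.29), which MSI2 is known to bind in mouse leukemia, were higher. Cdkn1a, the cell cycle inhibitor whose translation MSI1 represses, read 2072 and 5579 in leukemic, against 447 and 309 in Gr1/Mac1 arrays (3.14, SE 0.47). Numb, the Notch inhibitor whose translation Musashi proteins repress, was lower, with 2581 and 1789.8 in leukemic, against 7842 and 9959 in Gr1/Mac1 arrays (-2.03, SE 0.27). Notch1 was lower too (-2.37, SE 0.33). Of 2 tested probe sets each, 1 passed as lower for Numb and 1 for Notch1. The arrays read RNA levels and not translation.

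In the insulin-like growth factor axis, for which the IGF2BP proteins are named, 3 of 9 tested genes were higher and 2 lower. The counts were 2 and 3 under scaling to the hybridization controls, 3 and 1 without leukemic replicate 2, and 5 and 2 without Gr1/Mac1 replicate 2. The binding protein gene Igfbp5 read 1335 and 1832 in leukemic, against 3.99 and 0.94 in Gr1/Mac1 arrays (6.42, SE 0.38), and 1 of its 2 tested probe sets passed. Igf1 was higher by 3.37 (SE 0.31) and Irs2 by 2.0 (SE 0.30), and the call of Irs2 was lost with scaling to the hybridization controls (0.72, adjusted p = 0.077; range over alternatives 2.9e-04 to 0.077). Igf1r was lower, as given above, and Insr by a smaller step (-0.91, SE 0.24). The Insr call was lost without leukemic replicate 1 (-1.11) or 2 (-0.72). It was also lost with the mean of its probe sets (-0.52, adjusted p = 0.17) and with no trend of variance with signal (0.053). The lowest adjusted p of Insr over 16 alternatives was 4.7e-04, and 1 of its 2 tested probe sets passed. Igf2 itself was under the filter.

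All 4 partners of IGF2BP1 in the complex that protects coding regions of mRNA were higher as deposited. They were Syncrip (1.58, SE 0.22), the helicase gene Dhx9 (1.38, SE 0.25), Hnrnpu (0.95) and Ybx1 (0.94). Of the tested probe sets, 3 of 5 passed for Hnrnpu and 1 of 2 for Ybx1. Without MN1 leukemic replicate 1, 2 of the 4 were called, and without replicate 2, 1 was. None of the 4 passed with arrays scaled to the hybridization controls, where Hnrnpu turned to -0.37 and Ybx1 to -0.39. Hnrnpu (adjusted p = 0.16) and Ybx1 (0.21) also lost their calls with every array at the same median. Over all genes 27.5% were higher and 15.9% lower as deposited. Of the writers, erasers and other readers of m6A, the mark that IGF2BP proteins also read, 4 of 16 tested were higher and 0 lower. Only 1 was higher without leukemic replicate 1, without replicate 2 or with every array at the same median, and 0 were higher and 8 lower under scaling to the hybridization controls. The demethylase gene Fto rose by 1.62 (SE 0.24), and 1 of its 2 tested probe sets passed. Its call was lost under scaling to the hybridization controls (0.31, adjusted p = 0.29, against a lowest value of 6.6e-04 over 16 alternatives). Hnrnpa2b1 (1.09), Ythdc2 (1.05) and Mettl14 (0.92) turned to -0.24, -0.24 and -0.37 under that scaling. These 3 calls were also lost without leukemic replicate 1 (adjusted p = 0.088 for Hnrnpa2b1, 0.086 for Ythdc2 and 0.12 for Mettl14) and without replicate 2 (0.10, 0.18 and 0.24).

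Of the other HMG proteins, which like HMGA proteins bind DNA or nucleosomes, 6 of 8 tested were higher and 0 lower, with a median of 1.69. The nucleosome-binding protein gene Hmgn1 read 25638 and 27075 in leukemic, against 412 and 294 in Gr1/Mac1 arrays (6.18, SE 0.25), and its 3 tested probe sets rose. Hmgn3 (4.87, SE 0.39), Hmgb3 (2.69, SE 0.22) and Hmgn5 (2.17, SE 0.24) followed, and these 4 calls held in each alternative in which they were tested. Hmgn1 and Hmgn3 were absent from the alternative without probe sets of shared or cross-matching design, so that check could not be made for them. The list's median was 0.37 with scaling to the hybridization controls, and 4 members were then higher and 1 lower.

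Of 5 tested fetal and embryonic blood genes, 0 were higher (1 without leukemic replicate 1) and 1 was lower, Arid3a (-1.29, SE 0.31), a call lost without leukemic replicate 1 (adjusted p = 0.088) or 2 (0.074), with 6.5e-04 the lowest over 16 alternatives. The embryonic globin gene Hbb-bh1 (1.71, SE 0.94), Sox17 (0.19, SE 0.49) and Plag1 (-0.16, SE 0.51) did not pass. Of other RNA-binding regulators, 7 of 25 were higher and 2 lower, beside 27.5% and 15.9% of all genes. The counts were 2 higher and 3 lower without leukemic replicate 1 and with every array at the same median, 1 and 1 without leukemic replicate 2, and 0 and 12 under scaling to the hybridization controls. Cpeb3 (2.15, SE 0.50) and the stress granule protein gene G3bp1 (1.58, SE 0.22) were higher, as were Elavl1 (1.27, SE 0.32) and Tial1 (0.98, SE 0.24). Of the tested probe sets, 2 of 4 passed for Cpeb3 and 1 of 2 for G3bp1. Under scaling to the hybridization controls Elavl1 turned to -0.03 and Tial1 to -0.35, and Cpeb3 (adjusted p = 0.13) and G3bp1 (0.34) lost their calls. Cpeb3 was also lost without leukemic replicate 2 (0.13). Elavl1 and Tial1 were lost without leukemic replicate 1 (adjusted p = 0.11 for Elavl1 and 0.10 for Tial1) and without replicate 2 (0.095 and 0.10), and of the 4 tested probe sets of each, 1 of Elavl1 and 4 of Tial1 passed. With the mean of its probe sets Elavl1 did not pass (0.58, adjusted p = 0.12). Elavl1 (adjusted p = 0.05) and Tial1 (0.14) also lost their calls with every array at the same median. The largest difference of the list was the fall of Zfp36, which directs decay of inflammatory mRNA, with 2894 and 1914 in leukemic, against 26227 and 22659 in Gr1/Mac1 arrays (-3.36, SE 0.28). Celf2 was lower by a smaller step (-1.26, SE 0.25), a call lost without leukemic replicate 2 (adjusted p = 0.064) and without probe sets of shared or cross-matching design (0.12, with 3.3e-04 the lowest over 16 alternatives).

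Of 17 tested cell cycle genes, 7 were higher and 0 lower, and 3 were higher without leukemic replicate 1 and 3 without replicate 2. The replication helicase genes Mcm2 (1.99, SE 0.26), Mcm3 (1.59, SE 0.24), Mcm4 (1.54, SE 0.41) and Mcm6 (1.35, SE 0.25) had the largest differences, and none of these 4 calls held under scaling to the hybridization controls. With that scaling 0 of the 17 were higher and 10 lower. Mcm4 was also lost without leukemic replicate 1 or 2, and with no trend of variance with signal (adjusted p = 0.052).

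**Figure D4:**
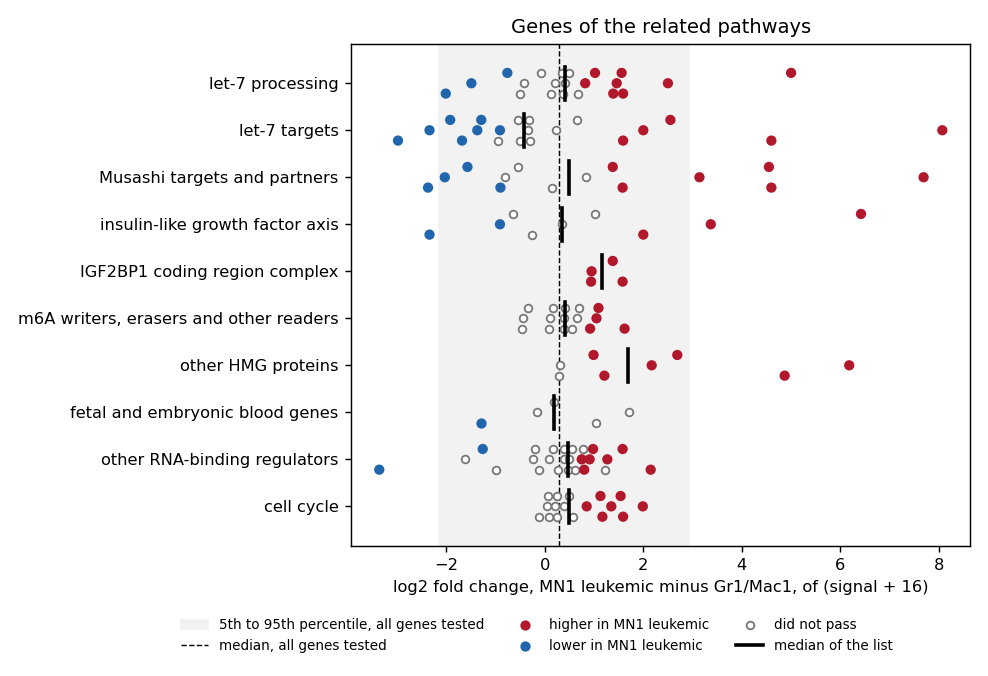
Log2 fold change, MN1 leukemic minus Gr1/Mac1 (x axis), of the tested genes on 10 lists, 1 row each; red points were higher and blue lower at an adjusted p under 0.05, open points did not pass, thick lines are list medians, and the grey band and dashed line are the 5th to 95th percentile and the median of all 12378 genes. The median of the other HMG proteins lies at 1.69 and that of the let-7 targets at -0.43. Under scaling to the hybridization controls, which is not drawn, these medians are 0.37 and -1.74, and that of all genes moves from 0.28 to -0.95.

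For each of the 4 genes that changed, the genes with the nearest pattern were found by the Euclidean distance between log2 values centred on each gene's mean, over the 4 arrays and 11702 candidate genes. With 4 arrays in 2 groups, the size of the group difference weighs heavily in this distance. Each gene was read from its brightest probe set, so the neighbours depend on that choice. For Igf2bp3 it had the smallest difference of the tested probe sets (2.02), and for Hmga2 the smallest of those that passed (2.25). Nearest to Msi2 were the lactate transporter gene Slc16a1 and Tshz2, both at a distance of 0.23, and Enpep at 0.24. Slc16a1 read 5529 and 5746 in leukemic, against 104 and 136 in Gr1/Mac1 arrays. Nearest to Lin28a were Rbm47 (0.32), an RNA-binding protein gene, Tmem154 (0.38) and Rhou (0.39). Rbm47 read 47.9 and 7.74 in leukemic, against 370.2 and 614 in Gr1/Mac1 arrays, with the same order of the leukemic arrays as Lin28a. Nearest to Igf2bp3 were Spint2 (0.09), Des (0.15) and Polr3g (0.18), and nearest to Hmga2 were Tmem98 (0.15), Ripk4 (0.28) and Arhgef5 (0.29).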

How the data were processed

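Biotin-labelled total RNA was hybridised to single-colour arrays, 2 per group. The deposited values are MAS5 signals, a linear intensity. Per the submitters' processing notes, the authors used GCOS 1.3.0. The sources used here name no detection calls and no scale target. The mean of the deposited values after trimming 2% at each end was 500.003 in leukemic and 500.004 in Gr1/Mac1 arrays. The median signals were 85.4 and 80.9 in leukemic and 59.1 and 74.8 in Gr1/Mac1 arrays.

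Probe sets were named through the platform's annotation, possibly an old one. Of 45037 probe sets beside 64 controls, 34945 had 1 symbol, 932 several and 9160 none here, and those with several were given no gene. RefSeq (GRCm38.p6) held the gene ID of 34741 and changed 0 symbols. It supplied the promoter and microRNA sequences, and 7 of the 9 genes matched a promoter.

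Signals were taken as log2(signal + 16), and the dimmest 40% by mean over the arrays were left out. The comparison used lmFit and eBayes of limma 3.58.1 (R 4.3.3). The variance followed the mean, tests were two-sided, and Benjamini-Hochberg adjusted p-values under 0.05 passed. One fit ran over 27022 probe sets, another over 12378 genes, each represented by its brightest probe set. The residual degrees of freedom were 2, and 7.04 and 6.90 after moderation. The median SE was 0.37 and 0.33. Precision is limited by the small number of arrays. The code was tested on simulated data. Named were all probe sets of the 9 genes, up to 4 called genes of each list in its main direction and 2 in the other, or 3 each way if tied, and the 3 nearest annotated genes. Non-called genes given for contrast were chosen after their values were seen. The members and lists were chosen with earlier results of these data known. The alternatives were pseudocounts of 1 and 64, other filters, scalings, variance models and probe set choices, a replicate block, and fits lacking 1 array. In those fits the array left alone in its group is taken to vary as much as the other group does. Plots were made in Python 3.11.15 (matplotlib 3.10.9).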

Additional observations from a re-analysis of the deposited data

How the results depend on the processing

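With all 4 arrays, the 15 higher and 2 lower probe sets of the 9 genes became 10 to 15 higher and 2 to 3 lower over the alternatives. Leaving out each array in turn gave 10 to 17 changed probe sets of the 9 genes, 8 to 15 of them higher. It gave 3470 to 10232 changed probe sets in all, 2575 to 5441 changed genes and 33 to 69 changed genes on the lists. The lowest counts came without leukemic replicate 2 for all probe sets (3470), all genes (2575) and listed genes (33), and without leukemic replicate 1 for the 9 genes (10). Without leukemic replicate 1, 5219 probe sets and 3429 genes changed. Of the values of the member probe sets under an alternative, 240 kept their direction and side of the threshold, 28 lost and 4 gained a call, and 1 turned, Igf2bp1, which ranged from -1.18 to 0.05 with an array left out and was 0.05 without Gr1/Mac1 replicate 2.

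The split over all probe sets moved with the scaling. It was 5742 higher and 3686 lower as deposited, 4824 and 4512 with quantile normalization, 3900 and 4727 with every array at the same median, and 1771 and 12631 with scaling to the hybridization controls by the mean factor of each group (14402 changed). Under that last scaling Elavl1 (-0.03), Hnrnpa2b1 (-0.24), Ythdc2 (-0.24), Tial1 (-0.35), Hnrnpu (-0.37), Mettl14 (-0.37) and Ybx1 (-0.39) turned, and 10 probe sets of the 9 genes were higher and 3 lower. The groups share replicate numbers, but nothing in the labels pairs them, and deviations of same-numbered arrays correlated at -0.04 across probe sets. With the replicate block, 9822 probe sets changed, 17 of them of the 9 genes, so the total of the members was the same. Dim signals limit Msi1, Lin28b and most of Igf2bp1, which could not be tested.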

Other observations

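A probe set annotated to the pseudogene Hmga2-ps1, not counted among the 9 genes and chosen after its values were seen, ran opposite to Hmga2. It read 127 and 127 in leukemic, against 1067 and 826 in Gr1/Mac1 arrays (log2 fold change -2.74, SE 0.30, limma adjusted p = 0.0012). Hmga2 itself was higher in leukemic marrow in all 4 of its probe sets, 3 of which passed.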
